A study of Mus musculus with 12 samples.

Results

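The response to vasoactive intestinal peptide (VIP) that remained under inhibition of the transcription factor CREB was examined in 6 of the 12 libraries of the series. These were the 3 libraries of ACREB virus cultures given VIP and the 3 of ACREB virus cultures given PBS, taken by their labels and paired by replicate number. The cells were astrocyte-enriched cortical cultures from newborn C57BL6/J mice. The ACREB cultures carried a lentivirus labelled pCIG3-ACREB, and the control cultures, which serve for comparison and entered the same statistical fit, carried pCIG3 (pCMV-IRES-GFP). Both viruses were present for 5 days, VIP was applied at 0.5 µM for 30 min, and cells recovered for 90 min before lysis. No culture without virus was analysed here, the share of cells that carried ACREB is not given in the sources used here, and gene counts do not separate ACREB transcripts from those of Creb1. Nothing in the labels ties a replicate number to its own culture or animal, and the p-values reflect only how far these libraries differ, which could be technical.

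VIP is a neuropeptide that binds receptors coupled to the stimulatory G protein and raises cyclic AMP. Cyclic AMP activates protein kinase A, which phosphorylates CREB, and CREB bound to cAMP response elements (CREs) then switches on genes such as the Nr4a orphan nuclear receptors. Cyclic AMP also acts through other proteins, among them the exchange factors encoded by Rapgef3 and Rapgef4. ACREB is a dominant negative that pairs with CREB and keeps it off DNA. In astrocytes VIP is known for mobilising glycogen and for the later resynthesis of glycogen that follows.

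Total counts were 16571398 to 19021486 in the 6 ACREB libraries. Same-numbered libraries deviated together, and ACREB PBS library 2 stood apart from the other ACREB libraries, since GC content and gene length accounted for 20.8% of how it departed from a median library, against 1.22% to 11.4% in the other ACREB libraries. Control PBS library 2 departed further (42.4%). Astrocyte markers summed to 7662 to 8462 CPM (CPM is the count scaled to library size with TMM factors) with PBS and 8019 to 8836 CPM with VIP, with 15 of 16 markers tested and none at 0. Markers of other cells were present too. Microglia markers summed to 1911, 2813 and 3421 CPM in PBS libraries 1 to 3 and to 1823, 2609 and 3577 CPM in VIP libraries 1 to 3. Fibroblast and mural markers reached 8599 CPM in PBS library 2 and 7700 CPM in VIP library 2 against 5446 to 5689 CPM in the other 4, and endothelial markers reached at most 56.8 CPM, with Cldn5 at 0. In bulk RNA, fewer cells of a type and less RNA per cell cannot be told apart.

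With ACREB, VIP still raised 13 genes and lowered none past an adjusted p of 0.05. The orphan nuclear receptor gene Nr4a2 rose 4.99-fold, the substance P receptor gene Tacr1 5.54-fold, and Dio2, whose enzyme activates thyroid hormone, 4.48-fold. The phosphodiesterase gene Pde10a rose 2.49-fold and Rgs4, which shuts off G-protein signalling, 1.95-fold. The other 8 were Trmt61b, Zhx2, Txndc11, Rnf217, Syt4, Rfx4, Sv2c and Pdzrn3, and all 13 rises lay between 1.70-fold and 5.54-fold. The test was edgeR's quasi-likelihood test on the counts of all 12 libraries with the replicate number as a block, adjusted by Benjamini-Hochberg over 16761 genes, and 0.0776% of the genes tested were called. Without the block the same test called 2 genes higher, Nr4a2 and Txndc11 (0.0119% of genes), and 0 lower. At an unadjusted p under 0.05 the blocked test gave 365 higher (2.18%) and 273 lower (1.63%) genes, together fewer than evenly spread p-values would give. DESeq2 with the block called 50 higher (0.298%) and 5 lower (0.0298%) at an adjusted p under 0.05.

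**Figure D1:**
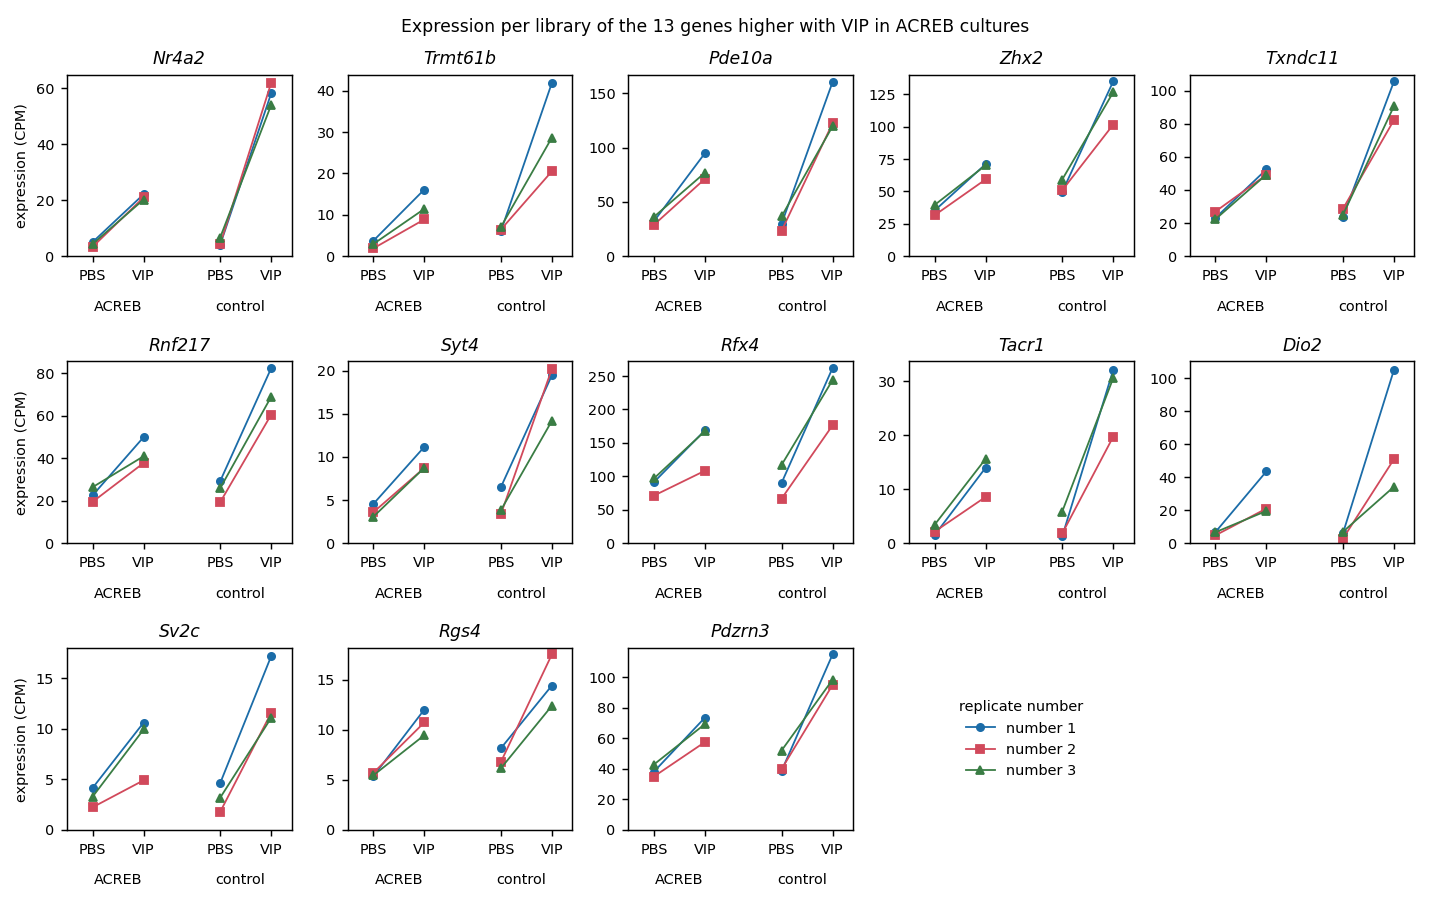
Expression in CPM (vertical axis, from 0) of the 13 genes past the threshold with ACREB, per library, with lines joining PBS and VIP libraries of the same replicate number in ACREB and control virus cultures. In every ACREB panel the 3 VIP points lie above the 3 PBS points, and the control VIP points lie above all ACREB VIP points in 12 of 13, Dio2 being the exception. For Trmt61b, Zhx2 and Rgs4 the control PBS points also lie above all ACREB PBS points.

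**Figure D2:**
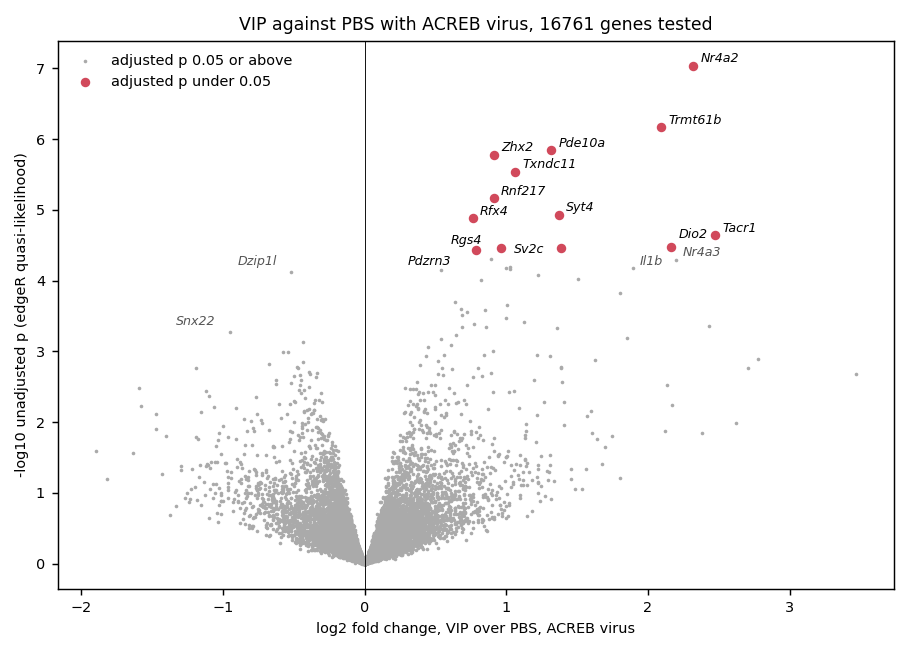
Log2 fold change of VIP over PBS with ACREB (horizontal axis) against -log10 of the unadjusted p (vertical axis) for 16761 genes. The 13 genes past the adjusted threshold, in red, are all on the side of higher expression, and the lower gene nearest to it is Dzip1l.

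Of the Nr4a orphan receptors, which are transcription factors that need no ligand, Nr4a2 gave the smallest p in the comparison. Nr4a2 (chromosome 2, 57106830 to 57124003, GRCm38) measured 5.02, 3.33 and 4.33 CPM in ACREB PBS libraries 1 to 3 and 22.1, 20.99 and 20.2 CPM in the VIP libraries. Every VIP library was several times above every PBS library, and the VIP libraries lay close together. The log2 rise was 2.32 (SE 0.19, adjusted p = 0.0015, edgeR quasi-likelihood test). Nr4a3 measured 43.0, 34.6 and 119.7 CPM with PBS and 268.6, 197.0 and 305.6 CPM with VIP. The groups did not overlap, but PBS library 3 was high, and the log2 difference of 2.20 (SE 0.34) missed the threshold in edgeR's test (adjusted p = 0.057). Nr4a1, at 17.9 to 39.9 CPM with PBS and 32.3 to 52.1 CPM with VIP, overlapped between groups at a log2 difference of 0.72 (adjusted p = 0.549, edgeR).

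Promoter sequences are shown for 4 called genes, picked because they hold CRE letters, to let these be seen beside the values. They come from RefSeq (GRCm38.p6) and run from 250 bases before the annotated start, and capitals mark the palindromic CRE TGACGTCA and its core TGACG on either strand (read on the other strand as CGTCA).
Nr4a2 (chr2:57123954-57124253, minus strand): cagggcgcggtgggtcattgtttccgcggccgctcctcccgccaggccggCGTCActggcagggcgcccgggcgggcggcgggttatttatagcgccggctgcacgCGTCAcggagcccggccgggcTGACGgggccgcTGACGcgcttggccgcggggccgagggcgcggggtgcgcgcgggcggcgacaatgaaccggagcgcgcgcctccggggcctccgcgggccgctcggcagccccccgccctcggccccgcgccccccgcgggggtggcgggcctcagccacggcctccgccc
Dio2 (chr12:90738989-90739288, minus strand): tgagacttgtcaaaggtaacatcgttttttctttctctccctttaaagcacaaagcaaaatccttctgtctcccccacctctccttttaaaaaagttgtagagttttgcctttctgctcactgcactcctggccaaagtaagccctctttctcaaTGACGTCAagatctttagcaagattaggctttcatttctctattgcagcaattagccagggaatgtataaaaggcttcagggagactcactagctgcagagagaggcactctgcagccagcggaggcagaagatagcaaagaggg
Txndc11 (chr16:11134483-11134782, minus strand): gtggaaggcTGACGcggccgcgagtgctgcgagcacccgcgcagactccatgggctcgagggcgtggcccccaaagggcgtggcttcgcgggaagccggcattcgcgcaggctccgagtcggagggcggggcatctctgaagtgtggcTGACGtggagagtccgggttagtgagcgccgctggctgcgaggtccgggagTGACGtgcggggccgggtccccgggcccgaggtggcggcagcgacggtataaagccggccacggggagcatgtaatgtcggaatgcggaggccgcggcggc
Rgs4 (chr1:169747593-169747892, minus strand): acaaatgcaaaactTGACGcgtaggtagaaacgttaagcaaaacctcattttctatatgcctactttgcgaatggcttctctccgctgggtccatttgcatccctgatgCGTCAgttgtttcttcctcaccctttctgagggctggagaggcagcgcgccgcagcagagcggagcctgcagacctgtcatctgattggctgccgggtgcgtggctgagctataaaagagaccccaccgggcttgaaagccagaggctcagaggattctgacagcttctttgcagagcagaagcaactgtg
Nr4a2 held the core 4 times, Txndc11 3 times and Rgs4 2 times in the printed windows. Dio2 held the palindrome 95 bases upstream of its annotated start, which also contains the core on both strands. Matched by symbol, a RefSeq window was found for 11 of the 13 called genes, of which 7 (63.6%) held the core and 1 (9.09%) the palindrome in any window. The windows of Pde10a, Rnf217, Sv2c and Pdzrn3 held neither. Of 144 genes called higher with control virus that had a window, a set that includes these 11, 52.1% held the core and 11.8% the palindrome. Of all 32851 windows in the table, 20.8% held the core and 1.79% the palindrome, and of 11835 tested genes with a window, 33.6% and 3.47% did in any window. The NR4A response element AAAGGTCA was in none of the 11 genes and in 1.16% of tested genes, and the AP-1 site TGANTCA was in none and in 6.42%. These are matches of letters in a short window and were not measured as binding.

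Other calls encode a receptor, signalling enzymes and a regulator of G proteins. Tacr1 measured 1.47, 2.12 and 3.40 CPM with PBS and 13.98, 8.56 and 15.6 CPM with VIP. Its log2 rise was 2.47 (SE 0.35, adjusted p = 0.042, edgeR), the steepest of the 13, with VIP library 2 the lowest of its group. Pde10a, which degrades cyclic AMP and cyclic GMP, measured 32.1, 28.9 and 36.2 CPM with PBS and 94.8, 71.2 and 76.9 CPM with VIP. The groups were well apart, and the log2 rise was 1.32 (SE 0.14, adjusted p = 0.0069, edgeR). Rgs4, a GTPase-activating protein for G-protein alpha subunits, measured 5.35, 5.69 and 5.44 CPM with PBS and 12.02, 10.7 and 9.47 CPM with VIP. Its log2 rise of 0.96 (SE 0.14) was close to the threshold (adjusted p = 0.048, edgeR). Dio2 measured 6.55, 4.66 and 6.56 CPM with PBS and 43.5, 20.9 and 19.5 CPM with VIP. VIP library 1 was the highest by far, all VIP libraries lay above the PBS libraries, and the log2 rise of 2.16 had an SE of 0.32 (adjusted p = 0.048, edgeR).

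Transcription factors, vesicle proteins and ubiquitin ligases made up most of the rest. Zhx2, a zinc-finger homeobox factor, measured 35.2, 31.6 and 39.6 CPM with PBS and 71.1, 59.3 and 70.2 CPM with VIP (log2 0.92, SE 0.10, adjusted p = 0.0069, edgeR). Rfx4, a factor of the RFX family that acts in brain development, measured 91.1, 71.0 and 96.7 CPM with PBS and 168.7, 108.3 and 167.6 CPM with VIP (log2 0.76, SE 0.10). Library 2 was the lowest of its group for both genes in both treatments, and all VIP libraries lay above all PBS libraries. Syt4, a synaptotagmin of secretory vesicles, rose from 3.04 to 4.53 CPM with PBS to 8.73 to 11.2 CPM with VIP. Sv2c, a synaptic vesicle glycoprotein gene, rose from 2.24 to 4.15 CPM to 4.91 to 10.6 CPM, and its lowest VIP value, from library 2, lay just above the highest PBS value. Rnf217 and Pdzrn3 encode ubiquitin ligases, and rose from 19.4 to 26.3 CPM to 37.7 to 49.9 CPM, and from 35.02 to 42.9 CPM to 57.6 to 73.7 CPM. Their log2 rises were 0.91 (SE 0.12) and 0.79 (SE 0.12).

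Txndc11, a thioredoxin-domain gene of the endoplasmic reticulum, was even within groups. It measured 23.0, 26.9 and 22.2 CPM with PBS and 52.4, 49.1 and 49.2 CPM with VIP (log2 1.06, SE 0.12, adjusted p = 0.0097, edgeR). The locus listed as Trmt61b (chromosome 17, 71557027 to 71598755), annotated as antisense, measured 3.71, 1.88 and 2.93 CPM with PBS and 16.1, 8.89 and 11.4 CPM with VIP (log2 2.09, SE 0.21). It shares 402 exonic bases with Spdya on the opposite strand. Txndc11 shares 75 with Snn, Dio2 100 with Gm26512 and Syt4 566 with Gm26658. Because the strand setting of the counter is not given, reads within these shared bases cannot be assigned to the gene or its partner.

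The calls depended on single libraries more than the fold changes did. All 13 log2 changes stayed positive in each of the 24 fits, with a median between 1.19 and 1.35. The 13 were chosen for their rise and had non-overlapping ACREB groups, so a change of sign could hardly occur. Nr4a2 passed in all 12 fits that left out 1 library (log2 2.18 to 2.49, adjusted p up to 0.035) but not without all libraries numbered 1 (0.140). Trmt61b lost its call without ACREB PBS library 1 or 2 or VIP library 1 (adjusted p up to 0.086). Pde10a lost it without ACREB PBS library 1 or 2 or VIP library 1 or 2 (up to 0.144). Each of the remaining 10 lost its call when any 1 of the 6 ACREB libraries was left out, except that Rnf217 kept it without PBS library 3. Some also lost it without 1 control library: Rnf217, Syt4, Tacr1, Sv2c, Rgs4 and Pdzrn3 without control VIP library 3, Dio2, Sv2c, Rgs4 and Pdzrn3 without control VIP library 1, Dio2, Sv2c and Rgs4 without control PBS library 1, and Sv2c and Rgs4 without control PBS library 3. The number of genes called higher was 1 without ACREB PBS library 1 or 2 or VIP library 1, 2 without VIP library 2, 3 without VIP library 3 and 4 without PBS library 3. Leaving out a control library gave 41 (PBS library 2), 22 (VIP library 2) or 7 (VIP library 3), and 12 to 14 for the other 3. Without the 4 libraries numbered 1 it was 0 (smallest adjusted p = 0.140, 157 higher and 83 lower at an unadjusted p under 0.05, edgeR).

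Just beyond the threshold stood genes whose groups also did not overlap but which did not pass. By the order of p these were Maff, a small Maf transcription factor gene (log2 0.89, adjusted p = 0.057), Nr4a3, Srgap1 (1.02), Emd, for the nuclear envelope protein emerin (1.00), Il1b (1.89), Eprs, a transfer RNA synthetase gene (1.03), Klf5 (0.54), Angptl2 (1.22), Tinf2 (1.51) and the splicing factor gene Cwc25 (0.82), with adjusted p from 0.057 to 0.068 by edgeR. Tinf2 shares 1540 exonic bases with Gmpr2 on the opposite strand and Il1b shares 25 with Il1bos, so both are uncertain. All 10 passed in DESeq2 with the block, and in edgeR once offsets for GC content and length were added. Il1b, the gene of the cytokine interleukin-1 beta, measured 0.82, 1.39 and 2.58 CPM with PBS and 3.65, 3.65 and 11.2 CPM with VIP. Library 3 was the highest in both groups for Il1b, as it was for the summed microglia markers above, whose PBS and VIP ranges overlapped. The part of microglia in the Il1b difference was not tested.

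No gene fell past the threshold in edgeR's test with the block. Non-overlapping lower groups were found for 547 genes (3.26%) and higher ones for 579 (3.45%). Dzip1l, a gene of primary cilia, came nearest, at 61.7, 50.8 and 50.9 CPM with PBS and 40.3, 36.5 and 36.9 CPM with VIP (log2 -0.52, SE 0.09, adjusted p = 0.060, edgeR). The groups were apart, and the value passed with DESeq2 (adjusted p = 6.15e-05). Among the next lower genes were Snx22 (-0.95), the metalloprotease gene Adamts1 (-0.44), Phf21b (-0.54), Stard8 (-0.43), the kinase gene Pim3 (-0.68), Sh3bp4 (-0.48), the Notch ligand gene Jag1 (-0.47) and Ptpn21 (-0.39), with adjusted p of 0.230 to 0.472 by edgeR. Of these, Snx22, Adamts1, Phf21b and Pim3 passed with DESeq2 (adjusted p = 0.0117, 0.0351, 0.0483 and 0.0492). Dzip1l, Phf21b and Pim3 passed in edgeR once offsets for GC content and length were added. Snx22 shares 825 exonic bases with Ppib and is uncertain. The Notch glycosyltransferase gene Lfng measured 158.1 to 168.4 CPM with PBS and 107.4 to 140.1 CPM with VIP (-0.40, adjusted p = 0.798).

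The second question was how the remaining response compared with that in control virus cultures, whose 6 libraries are separate from these. In the control cultures the same fit called 184 genes higher (1.1%) and 90 lower (0.537%). All 13 genes called with ACREB were among the 184, which is 100% of the ACREB calls and 7.07% of the control calls. The log2 rise of each of the 13 was smaller with ACREB than with control virus, although they were chosen for their rise with ACREB. Their medians were 1.32 and 2.00, and the ACREB rise was 57.3% to 97.0% of the control rise on the log2 scale. The median rise of the 13 within numbered ACREB pairs, on the scale of log2 CPM with a pseudocount of 2, was 1.28, 1.10 and 1.14, and within control pairs 1.87, 1.66 and 1.77.

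**Figure D3:**
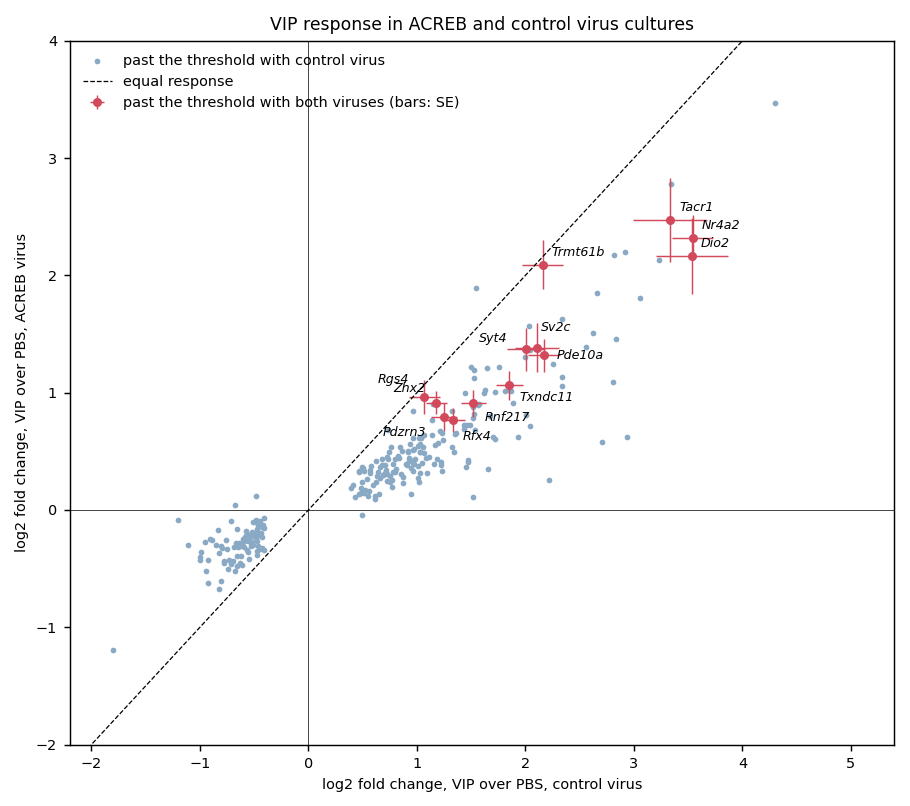
Log2 fold change of VIP over PBS with ACREB (vertical axis) against that with control virus (horizontal axis), for 274 genes past the threshold with control virus (blue) and the 13 past it with both (red, bars are SE). Of the 184 higher genes, 183 lie below the dashed line of equal response, and all 90 lower genes lie above it.

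The difference itself was tested as an interaction, and no gene passed after adjustment over all genes by edgeR with the block (0 higher, 0 lower, smallest adjusted p = 0.935). DESeq2 and edgeR without the block also gave 0. Before adjustment 461 genes (2.75%) had p under 0.05, a smaller share than evenly spread p-values would give. Of the 13 genes called with ACREB, 9 were among them. The log2 difference, ACREB minus control, was -1.22 for Nr4a2 (95% interval -1.80 to -0.64), -0.85 for Pde10a (-1.29 to -0.42), -0.79 for Txndc11 (-1.16 to -0.41) and -1.37 for Dio2 (-2.37 to -0.38). The difference was nearer 0 for some genes. It was -0.06 for Trmt61b (-0.70 to 0.57), -0.11 for Rgs4 (-0.55 to 0.33) and -0.26 for Zhx2 (-0.57 to 0.04), intervals that include 0 but do not show equal responses. Il1b was the 1 gene of the 184 with a larger log2 change with ACREB (1.89 against 1.55), at a difference of 0.34 (-0.66 to 1.35).

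The ACREB values were also read over the genes called with control virus, which include the 13 and come from the same fit of all 12 libraries. Of the 184 genes higher there, 183 had a positive log2 change with ACREB, 165 had VIP above PBS in all 3 numbered ACREB pairs against 12.2% of all genes tested, and 117 had non-overlapping ACREB groups with VIP higher against 3.45%. At an unadjusted p under 0.05, 143 of the 184 were higher with ACREB against 2.18% of all genes, and 0 were lower. Their median log2 change was 0.50 with ACREB and 1.07 with control virus, while all genes tested had medians of 0.0046 and -0.02. Of the 90 genes lower with control virus, 88 had a negative log2 change with ACREB and 57 were lower at an unadjusted p under 0.05 against 1.63% of all genes. Their medians were -0.28 and -0.59. Choosing genes in the control cultures favours larger values there, so the medians do not measure the lost share. Libraries of both viruses share replicate numbers, and whether the treatments of a number were handled together is not given in the labels.

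Genes of cyclic AMP signalling and of known cyclic AMP responses were then followed by list, and counts, here and in the lists that follow, are of genes past the adjusted threshold with ACREB in edgeR's test with the block. As 0.0776% of all genes were called, short lists would mostly hold 0 calls, and 0 calls does not show unchanged genes. Of 32 tested cAMP/CREB target genes, 4 rose (Nr4a2, Pde10a, Tacr1 and Dio2) and 0 fell, against 0.0776% of all genes. Because this list and those that follow were chosen with earlier results of these data known, such shares are not independent evidence. The target list had a median log2 change of 0.37, against 0.93 with control virus, where 16 rose and 1 fell. DESeq2 called 8 of the 32 with ACREB, all higher. Textbook targets differed among themselves. Crem, which encodes a CRE-binding factor related to CREB, measured 39.4, 40.0 and 41.7 CPM with PBS and 64.7, 48.8 and 49.5 CPM with VIP. The groups did not overlap, but the log2 difference of 0.41 did not pass (adjusted p = 0.999, edgeR), and 1.23 had passed with control virus (0.0057). Control cultures measured 16.5 to 28.7 CPM with PBS and 45.6 to 75.4 CPM with VIP. The VIP ranges of both viruses overlapped, while the ACREB PBS libraries lay above all control PBS libraries. Crem shares 472 exonic bases with Gm6225 and is uncertain. Fos (-0.09) and Per1 (-0.06) overlapped between groups, and with control virus they overlapped as well (0.30 and 0.15). Trh, the precursor gene of thyrotropin-releasing hormone, was at 0.06 to 1.00 CPM with PBS and 1.63 to 2.12 CPM with VIP (2.13, adjusted p = 0.549).

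Of 16 tested phosphodiesterases, which break down cyclic nucleotides, Pde10a rose and 0 fell. At an unadjusted p under 0.05 by edgeR, 5 were higher and 0 lower (2.18% and 1.63% of all genes). Pde4d measured 17.7, 15.5 and 21.02 CPM with PBS and 41.1, 28.9 and 39.3 CPM with VIP. Its groups did not overlap, and its log2 difference of 1.00 missed the threshold (adjusted p = 0.136, edgeR) but passed with DESeq2 (0.00066). Pde4b measured 60.3 to 62.8 CPM with PBS and 71.0 to 76.0 CPM with VIP, a log2 difference of 0.24 (adjusted p = 0.999, edgeR). Of the salt-inducible kinases, which hold back CREB coactivators, 0 of 3 passed, though 3 had non-overlapping higher groups (3.45% of all genes). Sik2, uncertain because it shares 1429 exonic bases with Ppp2r1b, had a log2 difference of 0.55 and Sik1 of 0.33, against 1.00 and 1.19 with control virus. No member passed among 15 genes for protein kinase A and cAMP sensors (median 0.04), 8 adenylyl cyclases (0.01) or 12 CREB family and coactivator genes (0.02). Creb1 overlapped between groups, at 59.8 to 104.1 CPM with PBS and 80.6 to 117.4 CPM with VIP. Of the receptors, Adcyap1r1 measured 65.5 to 102.7 CPM with PBS and 60.6 to 105.8 CPM with VIP, and Vipr2 1.63 to 2.87 CPM and 1.29 to 2.13 CPM. Vipr1 had 69 counts in all 12 libraries together and did not pass the filter.

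**Figure D4:**
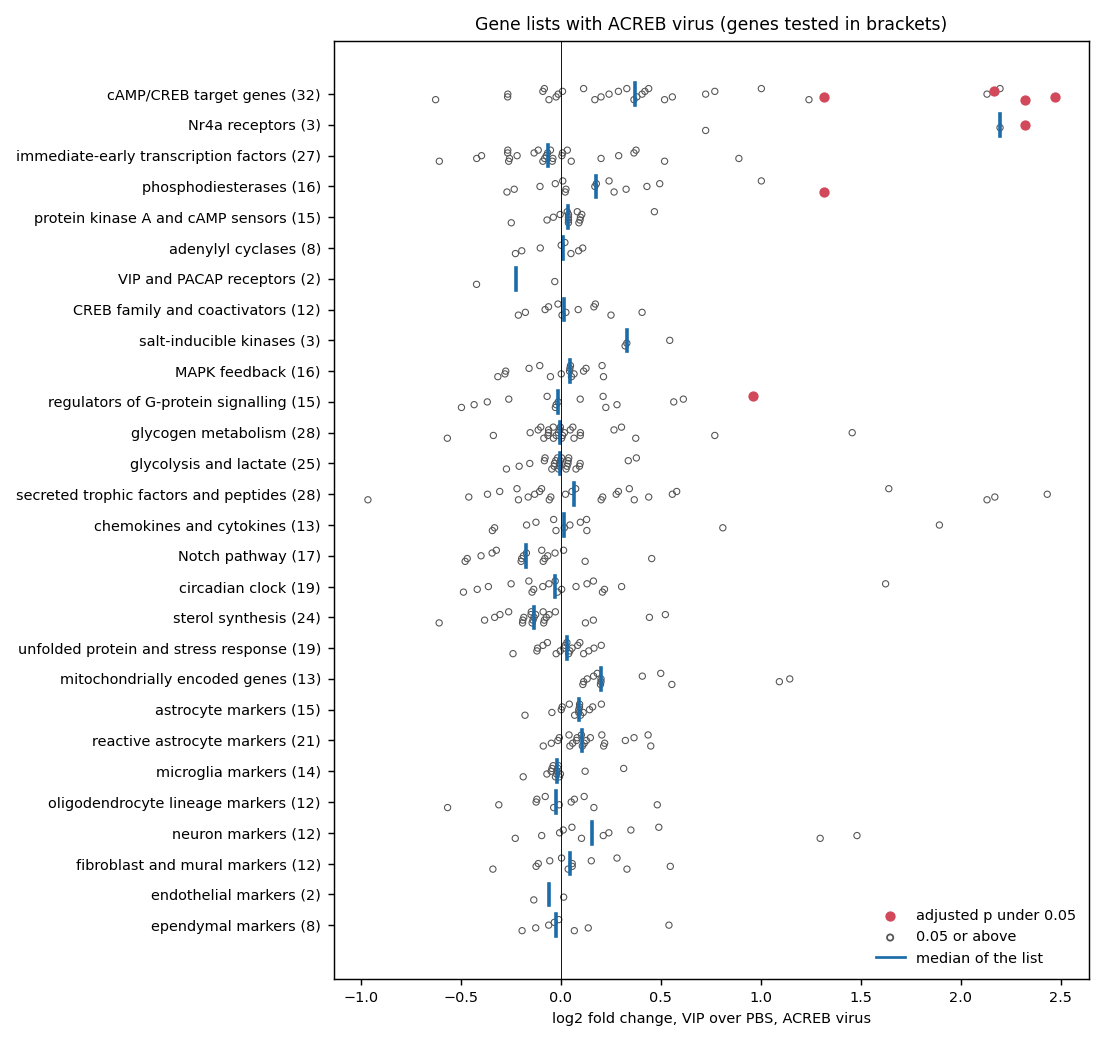
Log2 fold change of VIP over PBS with ACREB (horizontal axis) for each tested member of 28 gene lists, with the median of each list in blue and members past the adjusted threshold in red. Red points occur among cAMP/CREB targets, Nr4a receptors, phosphodiesterases and regulators of G-protein signalling, and most other members lie near 0. Lists share members, so Nr4a2 and Pde10a each appear among the cAMP/CREB targets and again in another list.

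Glycogen genes were examined because the series concerns glycogen synthesis. Of 28 tested, 0 passed, with a median log2 change of -0.0029. Ppp1r3c, which targets protein phosphatase 1 to glycogen, measured 39.7, 37.4 and 40.8 CPM with PBS and 84.1, 57.7 and 61.1 CPM with VIP. All VIP libraries lay above the PBS libraries, with number 1 the highest, and the log2 difference of 0.77 (SE 0.15) missed the threshold (adjusted p = 0.202, edgeR). It passed with DESeq2 (0.0030). With control virus its log2 rise was 1.32 (adjusted p = 0.0018, edgeR). The glycogen synthase gene Gys1 (-0.04, uncertain because it shares 310 exonic bases with Ruvbl2) and the phosphorylase gene Pygb (0.10) overlapped between groups. Ppp1r3g measured 0 to 0.234 CPM with PBS and 0.310 to 0.449 CPM with VIP, which did not overlap but rest on few counts (log2 1.46, adjusted p = 0.999, edgeR). With control virus its log2 rise of 2.84 passed (0.046). Of 25 glycolysis and lactate genes 0 passed (median -0.0048).

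Immediate-early transcription factor genes had 0 of 27 past the threshold in edgeR's test and a median of -0.07, while DESeq2 called Maff. Values ran from -0.61 for Npas4, a neuronal activity factor, to 0.89 for Maff. The 16 MAPK feedback genes, such as the phosphatase gene Dusp16 (-0.31) and Dusp14 (0.21), had 0 calls and a median of 0.05. Among 28 secreted trophic factors and peptides 0 passed in edgeR's test, and DESeq2 called Penk and Trh. At an unadjusted p under 0.05 by edgeR, 8 were higher and 1 lower (2.18% and 1.63% of all genes). The largest value there was that of Penk, the proenkephalin gene, which measured 0.33, 0.18 and 0.12 CPM with PBS and 1.12, 0.98 and 1.35 CPM with VIP (log2 2.43, adjusted p = 0.204 by edgeR and 0.0174 by DESeq2), and which is uncertain because it shares 233 exonic bases with A830012C17Rik. Cartpt, another neuropeptide gene, was at 0 to 0.64 CPM with PBS and 1.20 to 1.80 CPM with VIP (2.17, adjusted p = 0.681). Both are near the floor of detection at this depth, with 209 and 360 counts over 12 libraries. Of 13 chemokines and cytokines 0 passed in edgeR's test (median 0.02) and DESeq2 called Il1b, and the cyclooxygenase gene Ptgs2 had a log2 difference of 0.81 against 2.00 with control virus.

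Other programmes had few or no calls. Of 15 regulators of G-protein signalling only Rgs4 rose. The 17 Notch pathway genes had 0 calls and a median of -0.17, with 5 non-overlapping lower and 0 non-overlapping higher (3.26% and 3.45% of all genes), and values from -0.48 for the Notch target Hes5 to 0.45 for the ligand gene Dll4. Hes5 shares 433 exonic bases with Gm20421 and Dll4 214 with Gm14207, and both are uncertain. The 24 sterol synthesis genes had 0 calls and a median of -0.14, and 5 were lower and 2 higher at an unadjusted p under 0.05 (1.63% and 2.18% of all genes). The 19 circadian clock genes had 0 calls and a median of -0.03. The largest value there was 1.62 for Rorb, a nuclear receptor gene, which measured 27.9, 15.3 and 32.3 CPM with PBS and 106.5, 54.6 and 66.4 CPM with VIP (adjusted p = 0.403, edgeR), and which passed with GC and length offsets. The 19 unfolded protein and stress response genes had 0 calls (0.03). The 13 mitochondrially encoded genes had 0 calls and a median of 0.20, and their share of counts was 1.77% ± 0.0583 (SD, n = 3) with PBS and 1.94% ± 0.123 with VIP. For this share an exact two-sided permutation test that ignored the replicate number gave p = 0.1, the smallest that 3 against 3 unpaired libraries allow.

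Markers of cell identity had 0 calls in every list, but only 0.0776% of all genes tested were called. Lists this short would mostly hold 0 calls at that share. With control virus, 3 reactive astrocyte markers and 1 neuron marker were called higher. Called lower there were 1 astrocyte marker and 1 oligodendrocyte lineage marker. With ACREB the median log2 change was 0.09 for 15 astrocyte markers, 0.11 for 21 reactive astrocyte markers and -0.02 for 14 microglia markers. It was -0.02 for 12 oligodendrocyte lineage markers and 0.16 for 12 neuron markers. It was 0.05 for 12 fibroblast and mural markers, -0.06 for 2 endothelial markers and -0.02 for 8 ependymal markers. Gfap, the intermediate filament gene of astrocytes, measured 1348, 1201 and 1051 CPM with PBS and 1440, 1201 and 1194 CPM with VIP. The groups overlapped, and the log2 difference was 0.09 (SE 0.10, adjusted p = 0.999, edgeR).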

How the data were processed

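PolyA RNA of 12 libraries was sequenced. The deposited table holds the authors' unnormalized read counts for Ensembl genes in every library. Trimmomatic 0.39, STAR 2.7.1a, HTSeq 0.11.2, edgeR and R 3.6.1 are named, per the submitters' processing notes, with the build GRCm38. The strand setting is not given in the sources used here. The table held 55573 genes, 0 entries that name no gene, and a symbol for 55480.

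The tests used edgeR 4.0.16 (DESeq2 1.42.0 as an alternative) under R 4.3.3. After filterByExpr, 16761 genes remained. With TMM factors, a single quasi-likelihood model of the 12 libraries had group means and, as a block, the replicate number, which left 6 residual degrees of freedom. The block follows the pairing rule of this comparison. In a check, all 18 same-numbered pairs deviated from their group means together (correlations across genes 0.132 to 0.679). P-values were adjusted by Benjamini-Hochberg over all genes tested. SE is the absolute log2 fold change divided by the square root of F, and 95% intervals use 11.1 degrees of freedom. The script was tested on simulated data.

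The members and gene lists were chosen with earlier results of these data known. Named genes were all calls, the next 10 higher and 10 lower by p with non-overlapping groups, the same direction in all pairs and at least 2 CPM, the top 10 of control virus, and a set fixed by name; 1 gene that the rule names is not reported here. Lists give counts and medians without a test. Alternatives changed the block, libraries, tool, scaling, filter, and GC and length offsets, 1 at a time.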

Additional observations from a re-analysis of the deposited data

How the results depend on the processing

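With ACREB, the number of genes higher and lower was 13 and 0. It was 2 and 0 with no replicate block, 30 and 0 with the 6 ACREB libraries alone, 50 and 5 with DESeq2, 8 and 0 with RLE size factors, 41 and 1 with no filter on low counts, 8 and 0 with a stricter filter of 2 CPM in 3 libraries, and 41 and 5 with GC and length offsets. It was 49 and 11 with both PBS libraries numbered 2 left out, an alternative chosen after seeing the data. Fits that left out 1 library or 1 number gave 0 to 41 higher and 0 to 8 lower. All 13 calls recurred with DESeq2, with no filter and with both PBS libraries numbered 2 left out, and 12 with the 6 libraries alone and with GC and length offsets. With control virus the counts were 184 and 90, and 71 and 11 with no replicate block, 364 and 204 with DESeq2, 320 and 120 with no filter, 417 and 136 with GC and length offsets, 192 and 88 with RLE factors, 177 and 103 with the stricter filter, 330 and 155 with both PBS libraries numbered 2 left out, and 10 to 256 higher and 0 to 88 lower with 1 library or number left out. The interaction gave 0 in every fit that could test it. No named call changed sign, which the non-overlapping ACREB groups of the called genes made unlikely. Some fits had fewer samples or genes, and the cause of these shifts was not tested. The 3 libraries a group and 16571398 to 20529238 counts limit what small changes in genes of low counts can show.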

Other observations

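Of 46 genes at an unadjusted p under 0.001 with ACREB, 43 were higher and 3 lower, and 41 were past the adjusted threshold with control virus. The other 5 were chosen after their values were seen, and none passed the adjusted threshold with ACREB in edgeR's test with the block. DESeq2 called 4 of the 5, with adjusted p of 0.0174 (Penk), 0.0321 (Dbx2), 0.0117 (Snx22) and 0.0351 (Adamts1). Penk, described above, had a log2 difference of 2.43 with ACREB and 0.82 with control virus. In control cultures Penk measured 0.57, 1.09 and 0.85 CPM with PBS and 2.05, 1.50 and 0.95 CPM with VIP. Its VIP libraries thus overlapped between viruses, and its ACREB PBS libraries lay below all control PBS libraries. Dbx2, a homeobox gene, measured 4.64, 4.36 and 6.44 CPM with PBS and 7.08, 7.58 and 10.2 CPM with VIP (0.69, against 0.33 with control virus). Its control libraries measured 6.2 to 7.4 CPM with PBS and 7.9 to 10.1 CPM with VIP, so the VIP ranges of both viruses overlapped. Vash2, of the vasohibin family, measured 1.42, 2.06 and 2.23 CPM with PBS and 2.30, 3.71 and 4.45 CPM with VIP (0.86, against 0.43). With control virus Vash2 measured 1.7 to 3.2 CPM with PBS and 2.4 to 4.0 CPM with VIP, so here too the VIP ranges overlapped. Adamts1 measured 156.8, 186.8 and 155.3 CPM with PBS and 108.8, 137.1 and 123.6 CPM with VIP (-0.44, against 0.00), and its control PBS and VIP libraries overlapped at 150.7 to 162.8 and 129.8 to 182.7 CPM. Snx22 had -0.95 against -0.12. The differences between viruses had unadjusted p of 0.0072 (Adamts1), 0.012 (Snx22), 0.028 (Penk), 0.093 (Dbx2) and 0.105 (Vash2), each with an adjusted p of 0.935 in edgeR's quasi-likelihood test.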
